A study of Mus musculus with 17 samples.

Results

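The mature microRNAs (miRNAs) of embryoid bodies of the mouse embryonic stem cell (ESC) line B8 on day 7 of differentiation were compared with those of undifferentiated B8 ESCs on day 0. The members are all miRNAs in the 3 day 7 and the 3 day 0 libraries of this line, 6 of the 17 samples of the series. Of 1033 miRNAs in the table, 521 passed a filter on low values and were tested. Small RNA was sequenced from B8 and a second ESC line, D3, as ESCs, as embryoid bodies on day 7 and as outgrowths on day 21, and the day 21 samples of B8 were not analysed here.

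The day 0 cells grew without feeder cells in serum medium with LIF, the cytokine that holds mouse ESCs undifferentiated. The day 7 bodies, aggregates that begin to form derivatives of the germ layers, were made in hanging drops without LIF and with retinoic acid (RA), a mix of insulin, transferrin and selenium (ITS), and N2. Aggregation, loss of LIF, retinoic acid and 7 days of time changed together, so their effects cannot be told apart. The labels give no strain or genotype of the line and do not name the culture of each replicate. The spread behind each limma p-value is pooled over the 14 libraries with values, those of D3 included, and could be technical only. In such bulk RNA, fewer cells of a type and less RNA per cell cannot be told apart.

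A miRNA guides silencing proteins to messenger RNAs mainly through its seed, bases 2 to 8 from its 5′ end, so miRNAs with the same seed share most predicted targets. In mouse ESCs, the miR-290 and miR-302 clusters carry a common seed and are known for promoting rapid cell cycles and holding back differentiation. The let-7 family is known for the opposite role, and LIN28 blocks its maturation in ESCs. miR-10a and miR-10b lie within Hox gene clusters, which retinoic acid activates in differentiating ESCs. miR-9 and miR-124 are classical miRNAs of neural progenitors and of neurons.

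The sequences on which the results turn follow, grouped by seed, with the seed in capitals and all other bases in lower case. They were taken from RefSeq (GRCm38.p6), which held 873 of the 1033 miRNAs and between 93.41% and 95.67% of the signal of each B8 library. The first pair took the largest part of the late signal, and miR-10b-5p differs from miR-10a-5p by U12A, counted from 1 at the 5′ end with the base of miR-10a-5p first.
miR-10a-5p: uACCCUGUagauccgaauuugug
miR-10b-5p: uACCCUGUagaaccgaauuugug
Members of the miR-290 and miR-302 clusters share a seed that the miR-17 group carries displaced by a single base.
miR-295-3p: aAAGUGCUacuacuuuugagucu
miR-294-3p: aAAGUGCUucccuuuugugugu
miR-302d-3p: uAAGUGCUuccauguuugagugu
miR-17-5p: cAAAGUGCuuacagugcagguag
miR-93-5p: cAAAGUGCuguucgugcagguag
miR-20b-5p: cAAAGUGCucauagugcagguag
The next 4 sets are shown because members with an identical seed went in opposite directions.
miR-181a-5p: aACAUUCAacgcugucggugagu
miR-181b-5p: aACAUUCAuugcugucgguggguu
miR-181d-5p: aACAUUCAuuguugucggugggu
miR-181c-5p: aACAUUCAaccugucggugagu
let-7c-5p: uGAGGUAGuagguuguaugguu
let-7a-5p: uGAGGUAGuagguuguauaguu
let-7i-5p: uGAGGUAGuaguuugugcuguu
miR-92b-3p: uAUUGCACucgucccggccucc
miR-25-3p: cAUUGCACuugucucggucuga
miR-92a-3p: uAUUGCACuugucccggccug
miR-363-3p: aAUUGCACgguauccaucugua
miR-322-5p: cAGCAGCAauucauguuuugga
miR-16-5p: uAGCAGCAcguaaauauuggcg
miR-497a-5p: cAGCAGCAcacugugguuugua
Several of these differ by few bases. How reads that match several miRNAs were assigned is not given in the sources used here, so single values of near-identical members are uncertain.

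The composition of the miRNA signal differed between the days. The B8 libraries held 138397 to 275271 miRNA reads on day 0 and 141823 to 256613 on day 7. A value is the reads of a miRNA divided by 1 factor per library, and 3 reads were worth 2.01 on average on day 0 and 2.72 on day 7. The pair miR-10a-5p and miR-10b-5p held 0.647%, 0.660% and 0.578% of the day 0 signal and 41.9%, 42.59% and 46.97% of the day 7 signal, with no overlap (exact permutation test, 2-sided, p = 0.1, the smallest that 3 samples against 3 allow). The miR-290 cluster went from between 25.63% and 28.7% to between 5.96% and 10.63%, and miR-182-5p, a miRNA of sensory cells that is also abundant in ESCs, from about 15.97% to 4.44%. These shares add to a fixed total, so a rise of miR-10 lowers all others.

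**Figure D1:**
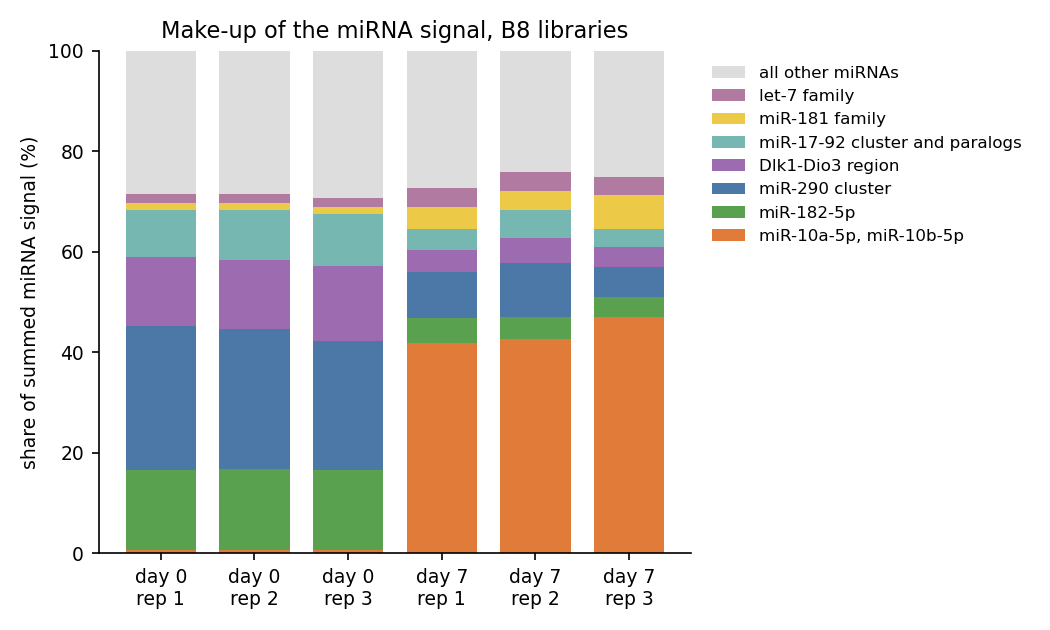
Share of the summed miRNA signal (%, vertical axis) held by 7 groups of miRNAs in each of the 6 B8 libraries (horizontal axis). The pair miR-10a-5p and miR-10b-5p rises from below 1% on day 0 to between 41.9% and 46.97% on day 7, while the miR-290 cluster, miR-182-5p and the Dlk1-Dio3 region shrink in all 3 day 7 libraries.

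Each miRNA was therefore tested on the deposited scale and after rescaling, which levels the median miRNA of the 6 libraries. With limma, 260 of the 521 miRNAs tested (49.9%) differed on the deposited scale, 114 (21.9%) higher and 146 (28%) lower on day 7. After rescaling 275 (52.8%) differed, 141 (27.1%) higher and 134 (25.7%) lower. On both scales 114 miRNAs were higher and 133 lower, and none was called in opposite directions. Values of the 2 days were fully separate for 286 miRNAs (54.9%) as deposited and for 288 (55.3%) rescaled. Scaling every library to the same total gave 97 higher and 188 lower miRNAs, and scaling to the same total without the miR-10 pair gave 161 and 108. The median log2 change over all tested miRNAs was −0.21 as deposited, −0.01 rescaled, −0.45 with equal totals and 0.21 with totals equal outside the miR-10 pair. In the following, rose and fell mean an adjusted p under 0.05 on both scales unless a scale is named, values and folds are on the deposited scale, and log2 changes are of the value plus 0.48, which understates changes of low miRNAs.

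**Figure D2:**
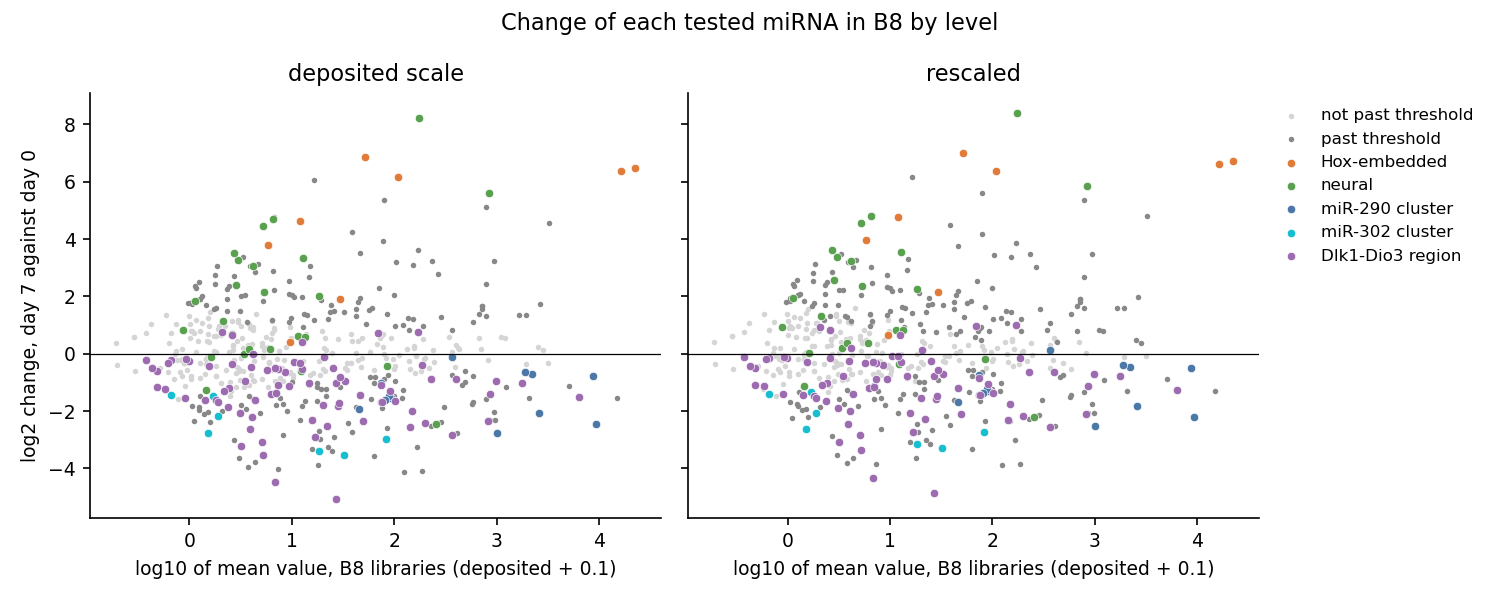
Log2 change from day 0 to day 7 (vertical axis) of the 521 tested miRNAs against the log10 of their mean value over the B8 libraries (horizontal axis), on the deposited scale (left) and rescaled (right). Dark grey points are past the threshold of 0.05 and coloured points are members of 5 lists. The Hox-embedded miRNAs lie above 0 and those of the miR-290 and miR-302 clusters lie at or below 0 on the deposited scale, with miR-294-3p near 0.

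Of the miRNAs embedded in Hox clusters, 7 of 8 tested rose on both scales and none fell, with a median log2 change of 5.39 against −0.21 over all miRNAs. miR-10a-5p (GRCm38 chr11:96317186-96317208, plus strand, outside annotated genes of the classes searched) stood at 548, 550 and 402 on day 0 and at 46703, 37223 and 48929 on day 7. It rose 88.6-fold (log2 6.47 ± 0.26 SE, limma adjusted p = 2.42e-16). miR-10b-5p, in an intron of Hoxd3 and Hoxd4 (chr2:74726074-74726096, plus strand), stood at 442, 424 and 289 and at 30628, 23912 and 42483. Its lowest day 7 library was the second and its highest the third, and the days were far apart (83.9-fold). The passenger strand miR-10a-3p, the less used arm of its precursor, went from 0, 0.585 and 0.864, at most 1 read per library, to 123, 82.2 and 106.

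The other Hox loci were less uniform. miR-615-3p, from the Hoxc cluster, stood at 3.90, 3.51 and 0.864 on day 0 and at 245, 130 and 263 on day 7, a 77.2-fold rise (log2 6.15 ± 0.41 SE, limma adjusted p = 6.32e-12). miR-196b-5p, of the posterior part of the Hoxa cluster, rose 3.80-fold, from 16.1, 12.3 and 8.64 to 45.5, 39.2 and 56.3. Its rescaled call was lost with a pseudocount of 0.2 per 1000000 (limma adjusted p = 0.0552). miR-196a-5p, its relative in other Hox clusters, was the exception, at a mean of 8.29 on day 0 and 10.9 on day 7 (limma adjusted p = 0.416 and, rescaled, 0.129). With totals equal outside the miR-10 pair, all 8 were higher.

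Among 25 neural miRNAs tested, 12 rose (48%) and 1 fell (4%) on both scales (median log2 change 1.13). Of all miRNAs 21.9% were higher and 28% lower as deposited. With equal column totals 12 of the neural miRNAs were higher and 3 lower. miR-219a-2-3p, known from oligodendrocytes and brain, was at 0.557, 0.585 and 0.864 on day 0, a single read in each library, and at 314, 291 and 430 on day 7 (log2 8.22 ± 0.30 SE, limma adjusted p = 5.09e-17), the largest log2 change measured. miR-9-5p, of neural progenitors, stood at 32.3, 35.7 and 30.2 and rose to 1723, 1301 and 1913, a 50.3-fold rise (log2 5.62 ± 0.30 SE, limma adjusted p = 1.39e-13). Its other arm miR-9-3p was at 0 in all day 0 libraries and at 9.41, 8.95 and 12.4 on day 7, at least 5.10-fold higher when each day 0 library is set to 3 reads. miR-135a-5p, also of neural tissue, went from 0 in all 3 libraries to 14.1, 17.9 and 6.86, at least 6.46-fold higher by the same bound.

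Other neural miRNAs did not follow. miR-124-3p, the leading miRNA of neurons, was below the value of 3 reads on both days, at 0, 1.17 and 0 and at 2.35, 1.12 and 0. miR-128-3p, also of neurons, stood at 89.6, 98.4 and 95.9 and at 98.8, 72.2 and 49.4, with overlap (limma adjusted p = 0.209). miR-7a-5p, found in neurons and in endocrine cells, fell 5.27-fold, from 536, 415 and 349 to 126, 64.3 and 56.3 (log2 −2.46 ± 0.29 SE, limma adjusted p = 1.43e-07). Of the 37 neural entries in the table, 15 lay below 3 reads on both days.

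The miRNAs of undifferentiated cells fell, and they did so unevenly. In the miR-290 cluster (chr7:3218626-3220841) 11 of 13 members fell as deposited and 10 rescaled, but 6 with totals equal outside the miR-10 pair, and none rose. miR-295-3p stood at 18576, 16592 and 11650 on day 0 and at 4700, 3212 and 1470 on day 7, a 4.99-fold fall (log2 −2.45 ± 0.32 SE, limma adjusted p = 6.8e-07). Rescaled, the third library was the lowest of day 7 for 10 of the 13 members, a count that was not made over all miRNAs. miR-294-3p has the same seed and was not past the threshold, at 414, 388 and 299 against 307, 590 and 206 (limma adjusted p = 0.769). miR-293-5p and miR-293-3p, the 2 arms of a single precursor, fell 6.17-fold and 4.13-fold, the former from 1889, 1898 and 1395 to 352, 371 and 117.

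The most abundant member on day 7 was one that fell little. miR-292a-5p stood at 12797, 12083 and 8407 and at 7316, 6227 and 5861, a 1.72-fold fall (log2 −0.76 ± 0.24 SE, limma adjusted p = 0.011). This call was lost without the first (limma adjusted p = 0.0628) or the second day 0 library (0.0539), and, rescaled, likewise (0.0672 and 0.0517). With totals equal outside the miR-10 pair the log2 change was −0.25 (limma adjusted p = 0.204). The cluster still held 17000 of the deposited signal in its highest day 7 library, against 43970 in its highest day 0 library.

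The miR-302 cluster (chr3:127545228-127545807), which marks the epiblast-like state, was at low values already on day 0. Summed over its members it was between 223.8 and 267.6 on day 0 and between 20.6 and 41.6 on day 7, and 6 of 7 members fell on both scales. miR-302d-3p stood at 152, 163 and 123 and at 24.3, 17.3 and 13.7, a 7.90-fold fall (log2 −2.98 ± 0.28 SE, limma adjusted p = 2.56e-09). miR-302a-3p fell 11.5-fold, from 58.4, 64.4 and 55.3 to 8.62, 2.80 and 4.12. The median log2 change of the cluster was −2.75, or −2.18 when miR-302a-5p and miR-302c-5p, at 0 in all day 7 libraries, are set to the bound that 3 reads allow.

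Summed over the 5 miRNAs matched to the seed AAGUGCU in RefSeq (miR-291a-3p, miR-294-3p, miR-295-3p, miR-302b-3p and miR-302d-3p), the share of signal went from 12.61%, 11.72% and 10.21% to 2.75%, 2.72% and 0.881%. The sum fell with a log2 change of −2.30 ± 0.31 SE (limma adjusted p = 1.1e-06). Of 341 seeds tested in this way, 191 (56%) differed as deposited, 89 (26.1%) higher and 102 (29.9%) lower, and 196 (57.5%) rescaled, 101 (29.6%) higher and 95 (27.9%) lower. The neighbouring seed CUCAAAC, of the 5p arms miR-292a-5p, miR-293-5p and miR-290a-5p, went from a mean of 9.17% to 3.96%.

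The miR-17-92 cluster and its paralogs are known for driving proliferation, and 18 of 25 members fell as deposited and 17 rescaled, where 1 rose. The 3 paralogous loci differed in the size of the change. At the X-linked cluster from Mir363 to Mir106a (chrX:52741693-52742567, minus strand), 6 of 7 members tested fell, with a median log2 change of −2.54. At Mir17 to Mir92-1 (chr14:115043671-115044506, plus strand), 6 of 8 fell as deposited and 5 rescaled, with a median of −1.29. At Mir25 to Mir106b, which lie in exon and intron sequence of Mcm7 (chr5:138165321-138165818, minus strand), 2 of 6 fell and the median was −0.65. These medians were not tested against each other.

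The 5p members of the 3 loci that share the seed AAAGUGC did not all fall. miR-20b-5p, from the X-linked cluster, stood at 714, 763 and 637 and at 87.8, 172 and 72.7, a 6.36-fold fall (log2 −2.76 ± 0.29 SE, limma adjusted p = 2.06e-08). miR-106a-5p, from the same cluster, fell 5.11-fold, from 475, 506 and 445 to 72.9, 122.5 and 83.7. miR-17-5p stood at 413, 567 and 374 and at 315, 432 and 250, with overlap (limma adjusted p = 0.148). miR-93-5p, from the Mcm7 locus, stood at 2341, 2290 and 1865 and at 1594, 2044 and 1448, also with overlap (limma adjusted p = 0.182). miR-18b-5p, of the same X-linked cluster but with another seed, AAGGUGC, fell 16.96-fold, from 228, 262 and 221 to 14.1, 19.6 and 8.23. The summed seed AAAGUGC, without miR-18b-5p, fell by 0.78 on the log2 scale (± 0.24 SE, limma adjusted p = 0.00676). Rescaled it fell by 0.53, a call lost without the first day 7 library (limma adjusted p = 0.0513).

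Of 55 seeds with at least 2 tested members, 4 as deposited and 5 rescaled had members past the threshold in both directions. The members below that the naming rule did not select were chosen after their values were seen. The miR-181 seed, ACAUUCA, had the widest divergence. miR-181a-5p, with precursors on chromosomes 1 and 2 and known for roles in lymphoid and neural development, stood at 293, 244 and 195 on day 0 and at 5434, 3666 and 9404 on day 7, a 25.3-fold rise (log2 4.57 ± 0.27 SE, limma adjusted p = 4.54e-13). miR-181b-5p, from the same pair of loci, stood at 36.2, 48.0 and 38.9 and at 1461, 868 and 2241, a 37.1-fold rise (log2 5.10 ± 0.28 SE, limma adjusted p = 1.77e-13). For both, the third day 7 library was highest and the second lowest, and every day 7 library was above every day 0 library.

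The miR-181 locus on chromosome 8 went otherwise. miR-181c-5p (chr8:84178924-84178945, minus strand) stood at 992, 884 and 760 and at 274, 252 and 244, a 3.42-fold fall (log2 −1.77 ± 0.22 SE, limma adjusted p = 3.87e-07). miR-181d-5p, encoded beside it in an intron of Nanos3, stood at 683, 684 and 575 and at 744, 534 and 961, with overlap (limma adjusted p = 0.555, and 0.0597 rescaled). On day 0 miR-181c-5p and miR-181d-5p were the leading members of the seed, and on day 7 miR-181a-5p led in each library. In the whole list, which also holds the 3p arms, 4 of 7 rose and 1 fell. Its median of 1.78 drops to 0.17 when miR-181b-2-3p, at 0 on day 0, is set to its bound. That member's own call was lost as deposited without the first (limma adjusted p = 0.0894) or the second day 7 library (0.1).

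**Figure D3:**
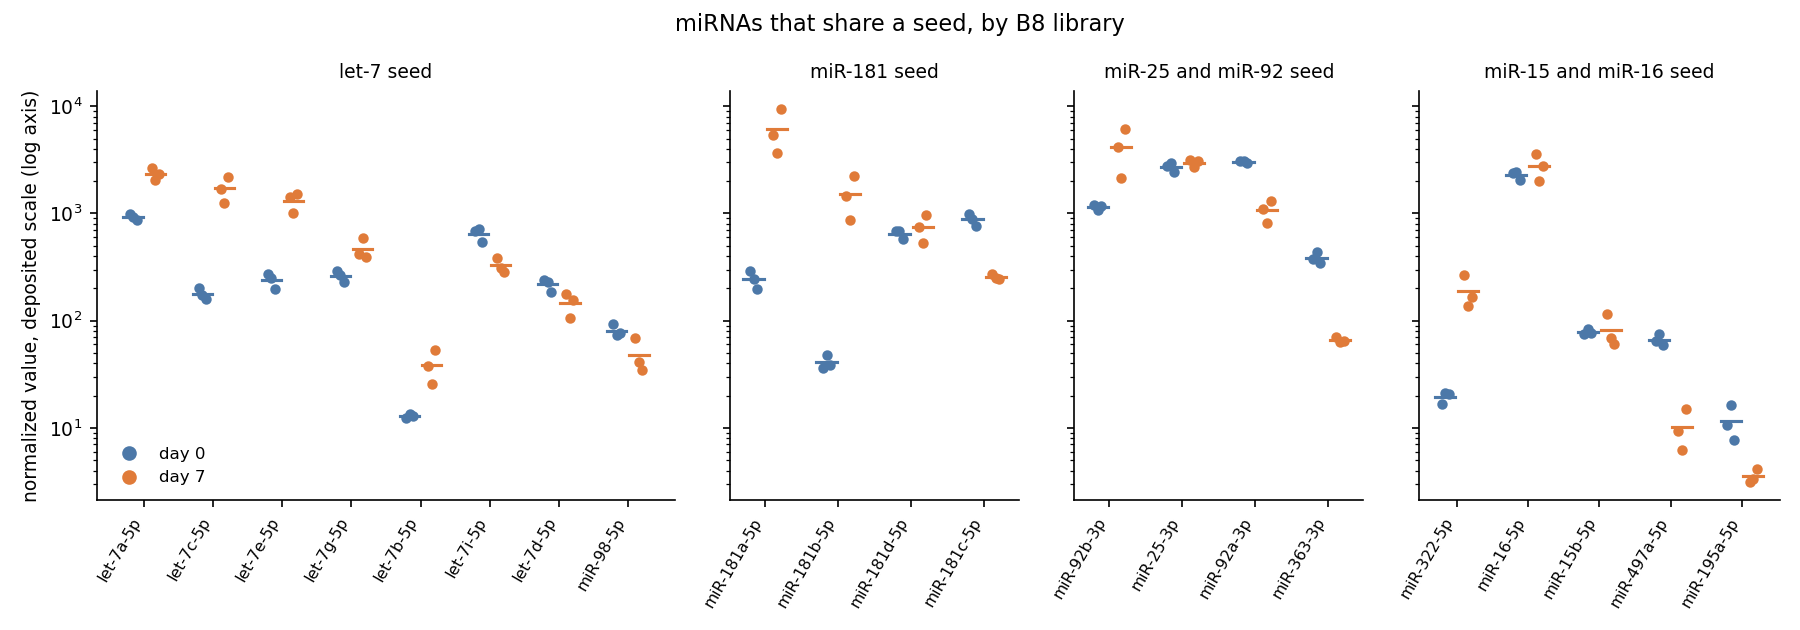
Deposited values (vertical log axis) of miRNAs that share a seed in the 3 day 0 and 3 day 7 libraries of B8, with a point for each library and a bar for the mean. In each of the 4 panels some members lie higher on day 7 and others lower, such as miR-181a-5p with means of 244 and 6168 and miR-181c-5p with 879 and 257.

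The let-7 seed, GAGGUAG, rose in sum by a log2 change of 1.31 ± 0.22 SE (limma adjusted p = 2.53e-05), with shares of 1.82%, 1.80% and 1.91% on day 0 and 3.73%, 3.77% and 3.56% on day 7. let-7c-5p stood at 201, 174 and 159 and at 1700, 1242 and 2190, a 9.60-fold rise (log2 3.23 ± 0.24 SE, limma adjusted p = 4.19e-11). let-7e-5p stood at 273, 251 and 198 and at 1429, 1019 and 1507, a 5.47-fold rise. let-7a-5p, the most abundant member, rose 2.53-fold, from 990, 920 and 870 to 2651, 2063 and 2318. These 3 rose in every library of day 7 above all of day 0.

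Other members of the family fell or were not past the threshold. let-7i-5p (chr10:122985698-122985719, minus strand) stood at 680, 716 and 544 and at 387, 312 and 285, a 1.97-fold fall (log2 −0.98 ± 0.25 SE, limma adjusted p = 0.00166). With totals equal outside the miR-10 pair its log2 change was −0.46 (limma adjusted p = 0.0768). let-7d-5p stood at 239, 231 and 187 and at 179, 105 and 156, lower without overlap but short of the threshold (limma adjusted p = 0.0611 as deposited). Leaving out the first day 7 library put it past the threshold, at 0.0326. Counting all 15 family members tested, the 3p arms included, 7 rose and 2 fell, and with totals equal outside the miR-10 pair 7 rose and none fell.

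The miRNAs of the miR-99 and miR-125 families lie beside let-7 genes. On chromosome 17, the cluster of let-7e, in an intron of Spaca6, and miR-125a, in an exon of it (chr17:17830352-17830879, plus strand), gave 4 mature miRNAs that rose. Of miR-99b, encoded beside them, miR-99b-3p rose 2.99-fold, while miR-99b-5p stood at 1156, 1227 and 588 and at 1605, 969 and 1695, with overlap (limma adjusted p = 0.11). Rescaled, miR-99b-5p was higher (0.00816), a call lost without the third day 0 library (0.0629). miR-125a-5p stood at 350, 347 and 320 and at 1515, 836 and 952, a 3.25-fold rise (log2 1.65 ± 0.25 SE, limma adjusted p = 4.29e-06). miR-99a-5p, encoded beside let-7c on chromosome 16 (chr16:77598940-77598961), stood at 2.23, 2.93 and 5.18 and at 164, 135 and 167, a 45.1-fold rise (log2 5.38 ± 0.34 SE, limma adjusted p = 2.5e-12). miR-100-5p rose 8.57-fold. miR-125b-5p stood at 155, 140 and 126 and at 212.4, 136 and 165, with overlap (limma adjusted p = 0.413). In all, 6 of 9 members rose as deposited and 7 rescaled, with none lower.

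The seed AUUGCAC joins miRNAs of several loci, and their sum did not pass the threshold (log2 0.14 ± 0.23 SE, limma adjusted p = 0.608). Its share was 4.84%, 5.15% and 5.75% on day 0 and 4.60%, 3.99% and 5.47% on day 7. Within it, miR-92b-3p (chr3:89227126-89227147, minus strand) stood at 1187, 1070 and 1178 and at 4188, 2131 and 6197, a 3.64-fold rise (log2 1.74 ± 0.28 SE, limma adjusted p = 9.76e-06). miR-92a-3p stood at 3071, 3112 and 2930 and at 1095, 811 and 1295, a 2.85-fold fall (log2 −1.53 ± 0.22 SE, limma adjusted p = 1.89e-06). miR-363-3p, from the X-linked paralog cluster, fell 5.85-fold, from 377, 434 and 346 to 70.6, 62.6 and 64.5. miR-25-3p stood at 2776, 2983 and 2419 and at 3136, 2716 and 3093, with overlap (limma adjusted p = 0.633). Rescaled, miR-25-3p was higher (limma adjusted p = 0.036), and leaving out any library except the second of day 7 gave between 0.0502 and 0.0971. The summed seed passed the threshold only rescaled and without the second day 7 library (log2 0.61, limma adjusted p = 0.00269).

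The seed AGCAGCA of miR-15 and miR-16, known as brakes on the cell cycle, was likewise not past the threshold in sum as deposited (log2 0.26 ± 0.24 SE, limma adjusted p = 0.354). miR-322-5p, of an X-linked cluster (chrX:53047997-53054349, minus strand), stood at 16.7, 21.1 and 20.7 and at 267, 136 and 165, a 9.72-fold rise (log2 3.20 ± 0.28 SE, limma adjusted p = 1.02e-09). Its other arm miR-322-3p rose 20.8-fold. miR-497a-5p (chr11:70234730-70234751) fell 6.50-fold, from 64.6, 74.9 and 59.6 to 9.41, 6.15 and 15.1. miR-16-5p held most of the seed's signal, at 2387, 2458 and 2044 against 3589, 1992 and 2789, with overlap (limma adjusted p = 0.412). Rescaled it was higher (0.0169), a call lost without the third day 0 library (0.0516) or the first of day 7 (0.0882). In the list of this family 3 of 11 rose and 3 fell as deposited (27.3% each), near the 21.9% higher and 28% lower of all miRNAs.

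Imprinted miRNA regions moved in different directions. The Dlk1-Dio3 region on chromosome 12, whose miRNAs come from the maternal chromosome, had 44 of 77 members lower and 2 higher as deposited, 39 and 2 rescaled, and 33 and 2 with totals equal outside the miR-10 pair. Its median log2 change was −1.17. miR-127-3p, its most abundant miRNA, stood at 10330, 9575 and 8550 and at 3383, 2848 and 3755, a 2.85-fold fall (log2 −1.52 ± 0.22 SE, limma adjusted p = 3.21e-06). miR-381-3p fell 7.08-fold, from 683, 684 and 539 to 106, 86.7 and 76.8. miR-136-5p stood at 60.7, 49.2 and 44.9 and at 1.57, 3.36 and 0, with a day 7 mean below 3 reads.

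The 2 members of the region that were higher were miR-433-3p and miR-370-3p. miR-433-3p stood at 134, 122 and 122 and at 192, 164 and 298 (log2 0.75 ± 0.26 SE, limma adjusted p = 0.0193). Its call on the deposited scale was lost without the second (0.0586) or the third day 0 library (0.0513) or the third of day 7 (0.121). miR-370-3p stood at 60.1, 43.3 and 52.7 and at 89.4, 73.3 and 97.4 (limma adjusted p = 0.0158), and lost its call as deposited without the second of day 0 (0.0814) or the third of day 7 (0.0502). Neither was past the threshold with equal column totals.

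At the Gnas and Mest imprinted loci, 4 of 5 members rose. miR-298-5p, near Gnas on chromosome 2, stood at 1199, 984 and 977 and at 3202, 1676 and 3466, a 2.64-fold rise (log2 1.34 ± 0.26 SE, limma adjusted p = 0.000126). miR-296-3p, its neighbour, rose 2.61-fold, from 173, 148 and 159 to 402, 253 and 596. The Sfmbt2 cluster, a large repeat-rich array in an intron of an imprinted gene, showed 4 of 42 members higher and none lower as deposited, 8 and none rescaled, and 3 higher and 4 lower with equal column totals, so no direction held under all scalings. miR-669a-5p stood at 353, 368 and 352 and at 409, 356 and 343 (limma adjusted p = 0.884). Members of this array are near-identical copies.

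Lists for other cell types that an embryoid body can hold gave low levels or mixed directions. Of 13 muscle entries, all lay below 3 reads on both days, and 9 were at 0 in every B8 library, miR-206-3p and miR-133b-3p among them. Of the 4 tested, 1 was higher past the threshold (25%, near the 21.9% of all miRNAs as deposited). Blood and endothelial miRNAs summed to between 470.1 and 628.9 on day 0 and between 129 and 159.1 on day 7. Within them miR-142a-5p, of blood cells, stood at 400, 384 and 277 and at 18.8, 23.5 and 17.8, a 17.6-fold fall (log2 −4.10 ± 0.31 SE, limma adjusted p = 7.93e-11). The red cell miRNAs miR-451a, miR-144-5p and miR-144-3p were at 0 in all 6 libraries, and miR-486a-5p rose 3.33-fold, to 43.1, 22.9 and 43.9. In this list 4 of 10 fell (40%) and 1 rose (10%) as deposited, against 28% and 21.9% of all miRNAs. With totals equal outside the miR-10 pair 3 fell and 3 rose (30% each), against 20.7% and 30.9% of all miRNAs.

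Mesenchymal and smooth muscle miRNAs summed to between 3465 and 4271 on day 0 and between 1129 and 2480 on day 7. Of 11 tested, 1 was higher (9.09%) and 5 lower (45.5%) as deposited, against 21.9% and 28% of all miRNAs, and 2 were higher and 5 lower rescaled. miR-143-3p, of smooth muscle and fibroblasts, fell 4.99-fold, from 1622, 1807 and 1434 to 326, 380 and 268. miR-21a-5p, a widely induced miRNA of stroma, fell 4.83-fold. miR-214-3p, made from an antisense transcript of Dnm3 in mesenchyme, rose 5.13-fold, from 22.8, 22.8 and 23.3 to 91.7, 152 and 110. The epithelial list had 1 of 11 higher (9.09%) and 4 lower (36.4%) as deposited, against 21.9% and 28% of all miRNAs. It had 2 and 3 rescaled, and none higher and 7 lower with equal column totals. In it miR-141-3p fell 3.73-fold and miR-200a-3p 2.95-fold, while miR-429-3p, a member of the same miR-200 family, was not past the threshold (limma adjusted p = 0.61). Of 6 endodermal miRNAs 2 rose (33.3%) and 1 fell (16.7%), against 21.9% and 28% of all miRNAs as deposited. Their median changed sign, from −0.20 to 0.09, when miRNAs at 0 on a day were set to their bounds. miR-375-3p, of the pancreatic and gut lineages, rose 4.02-fold, from 17.8, 15.8 and 21.6 to 81.5, 51.5 and 89.2.

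Several further families and clusters had lower members but none that was higher past the threshold, as deposited or rescaled. All 6 miRNAs of the miR-183 cluster (chr6:30165918-30169737, minus strand) fell as deposited and 5 rescaled, and miR-182-5p stood at 24266, 23781 and 19089 against 8952, 6437 and 7730. In the miR-23, miR-27 and miR-24 clusters 7 of 8 fell as deposited and 6 rescaled, with miR-27a-3p 5.49-fold lower and miR-27b-3p 2.23-fold lower. miR-29a-3p, known for restraining collagen genes, fell 12.4-fold, from 130, 119 and 105 to 10.2, 10.1 and 8.23, and miR-29b-3p was at 0 in all day 7 libraries, at least 2.17-fold lower than on day 0. Of miR-34 and miR-449 miRNAs, known as p53 targets and ciliated cell miRNAs, 3 of 5 fell, and miR-34c-5p fell 3.57-fold while miR-34a-5p was not past the threshold (limma adjusted p = 0.776). Of miR-221 and miR-222, 2 of 3 fell, with miR-221-3p 2.41-fold lower.

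The miR-30 family, common in differentiated tissues, had 4 of 11 higher and none lower as deposited, 8 and none rescaled, and 3 higher and 2 lower with equal column totals. miR-30a-3p rose 3.52-fold, from 15.6, 23.4 and 19.01 to 77.6, 58.2 and 68.6. In the miR-130 and miR-301 family 2 of 8 (25%) rose as deposited, near the 21.9% of all miRNAs. Within it miR-301a-3p, in an intron of Ska2, rose 2.50-fold, from 474, 517 and 355 to 1298, 973 and 1099. With equal column totals 2 of that family were higher and 2 lower. In the miR-148 and miR-152 family 4 of 6 fell as deposited, 3 rescaled and 1 with totals equal outside the miR-10 pair. Of the miR-26 and miR-101 families 2 of 6 were lower, a share near the 28% of all miRNAs that were lower as deposited. miR-101a-3p fell 2.22-fold, and with totals equal outside the miR-10 pair its call was lost (limma adjusted p = 0.0567). Of 6 widely expressed miRNAs 2 rose and 2 fell (33.3% each, against 21.9% and 28% of all miRNAs as deposited). Among them miR-103-3p rose 2.20-fold whereas miR-191-5p was not past the threshold (limma adjusted p = 0.294). miRBase entries that resemble fragments of other RNAs, a possible sign of RNA quality, summed to between 325.8 and 420.7 on day 0 and between 107.4 and 203.1 on day 7, and miR-6539 alone carried that fall, 9.72-fold. The other 3 of the 4 entries were not past the threshold as deposited, and 2 of them, miR-6240 and miR-1983, were higher rescaled, so the list's median log2 change was 0.48 as deposited and 0.73 rescaled. The rescaled call of miR-6240 was lost without the second (limma adjusted p = 0.151) or the third day 0 library (0.113) or the first (0.0631) or the third of day 7 (0.247). Their part in the other results was not tested.

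**Figure D4:**
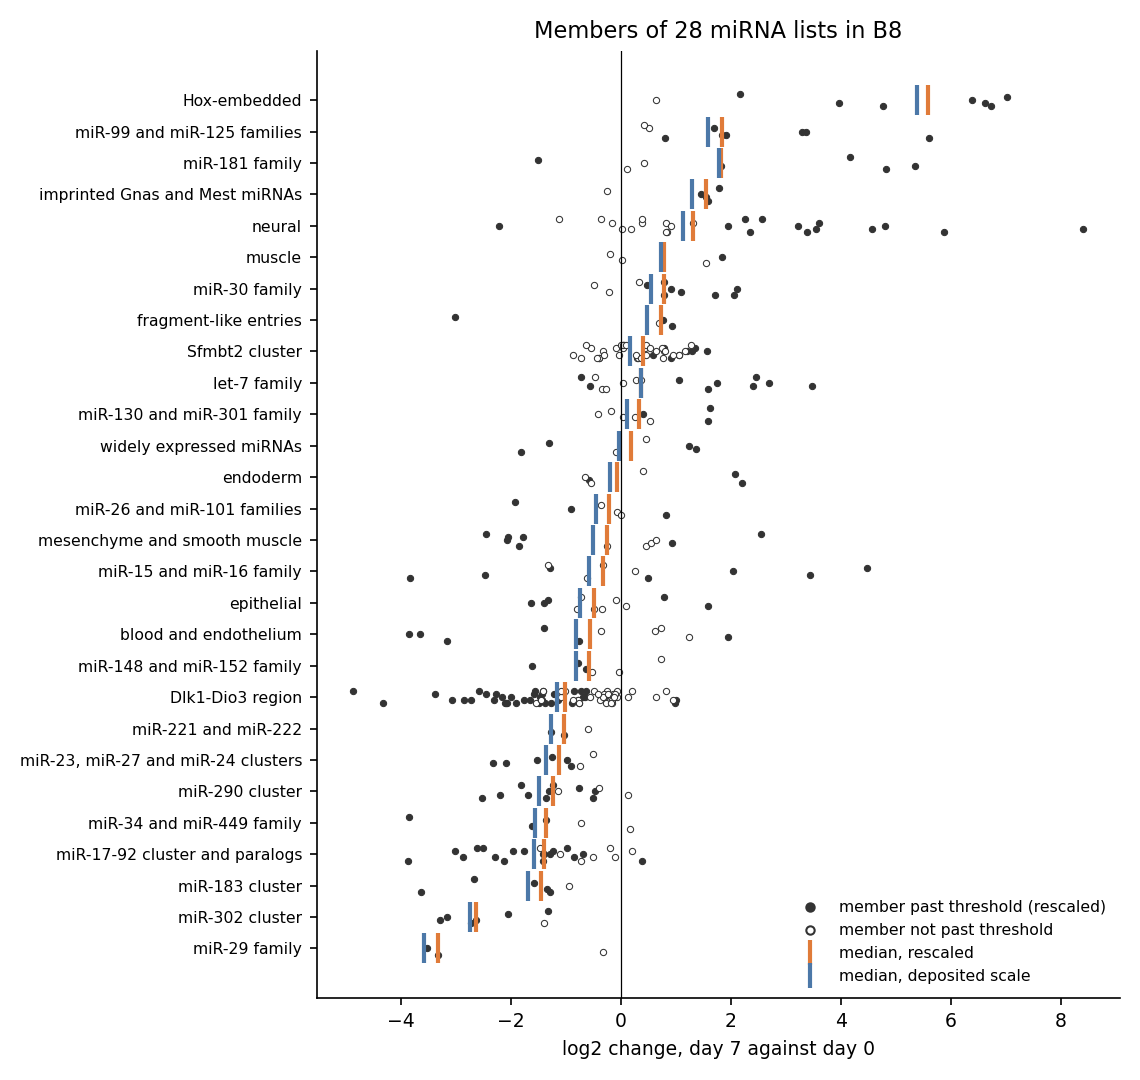
Rescaled log2 change from day 0 to day 7 (horizontal axis) of each tested member of 28 miRNA lists (rows), filled where past the threshold, with the list medians rescaled and on the deposited scale. The Hox-embedded list has the highest medians. The lowest fitted median as deposited is −3.57 for the miR-29 family, which becomes −1.12 with miR-29b-3p at its bound, and several lists have filled points on both sides of 0.

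The balance between the 2 arms of a precursor is free of the library factors up to the pseudocount. Of 73 precursors with both arms measured, 18 (24.7%) differed between the days, 3 (4.11%) toward the 5p arm and 15 (20.5%) toward the 3p arm, by limma on the log2 ratio of the arms. The count fell to 8 without the first day 0 library and to 10 without the second. For 6 precursors the more abundant arm differed between the days, but among them miR-106b (limma adjusted p = 0.087) and miR-466n (0.476) were not past the threshold.

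miR-335, in an intron of the imprinted gene Mest (chr6:30741299-30741396, plus strand), had 30.8%, 24.9% and 23.5% of its signal on the 5p arm on day 0 and 50.6%, 59.6% and 51.8% on day 7. The shift was 1.72 ± 0.25 SE on the log2 scale (limma adjusted p = 0.000148). miR-335-5p rose 2.32-fold, from 115, 87.2 and 75.2 to 238, 244 and 161, while miR-335-3p stood at 258, 263 and 245 and at 233, 166 and 150 (limma adjusted p = 0.0942). The 5p arm is shown first:
miR-335-5p: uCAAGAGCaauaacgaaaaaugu
miR-335-3p: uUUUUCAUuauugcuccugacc

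miR-136, opposite an exon of Rtl1 in the Dlk1-Dio3 region (chr12:109595327-109595388, plus strand), went the other way, from 58.6%, 57.5% and 58.4% on the 5p arm to 14.3%, 28.6% and 0% (log2 −2.55 ± 0.31 SE, limma adjusted p = 4.78e-05). Its day 7 values were low, with 1.64 on average for the 5p and 6.85 for the 3p arm, and both arms fell. miR-181c moved from 91.6%, 91.2% and 90.3% on the 5p arm to 78.8%, 77.9% and 72.95% (limma adjusted p = 0.000148). miR-214 went from a mean of 30.5% to 12.7% and miR-151 from 30.0% to 11.3%. For miR-151 the 3p arm rose 3.14-fold while the 5p arm, at 150, 165 and 133 against 165, 106 and 108, overlapped (limma adjusted p = 0.417). The calls of these 5 precursors held in the 12 other settings tried, except that miR-214, whose 5p arm is low, was not tested in the setting that asks for at least 20 in each arm.

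Other shifts were less secure. miR-28a, chosen after its values were seen, went from 64.9%, 59.5% and 56.7% to 47.2%, 43.0% and 37.0% on the 5p arm (limma adjusted p = 0.0135), a call lost without the first day 0 library (0.0671). miR-379 went from a mean of 45.9% to 62.0%, and its call was lost without the first (0.0671) or the third day 0 library (0.0532) or the third of day 7 (0.054). miR-25 went from 1.06% to 0.425%, lost without the first (0.0889) or second day 0 library (0.0741) or the second of day 7 (0.074). Fitted on the 6 B8 libraries alone, miR-28a (limma adjusted p = 0.0588), miR-379 (0.0728) and miR-25 (0.0588) also lost their calls. The call for miR-10b rests on a 3p arm at 0.381 on day 0 and was lost with a pseudocount of 0.2 per 1000000 (limma adjusted p = 0.365).

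**Figure D5:**
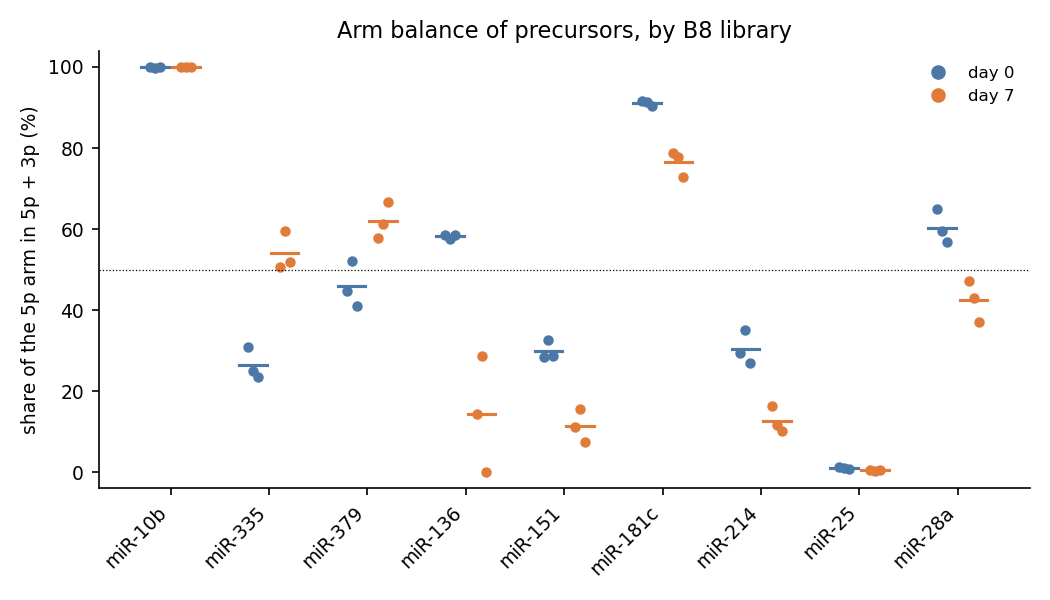
Share of the 5p arm in the sum of both arms (%, vertical axis) for 9 precursors in the 3 day 0 and 3 day 7 libraries of B8, with a point for each library and a bar for the mean. The means of miR-335 and miR-379 cross the dotted line at 50% upward and those of miR-136 and miR-28a cross it downward.

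Replicates were less alike on day 7. Over the 260 miRNAs above the median level, the median SD between the 3 libraries was 0.158 on the rescaled log2 scale on day 0 and 0.357 on day 7. In the third day 7 library, 7 of 8 Hox-embedded and 14 of 21 neural miRNAs above the value of 3 reads had their highest rescaled value of the day. The same library was lowest for 10 of 13 miRNAs of the miR-290 cluster. The second day 7 library was highest for 8 of those 13 and lowest for 6 of the 8 Hox-embedded miRNAs. The same counts were not made over all tested miRNAs, so these are not shown to be particular to the lists. The third library also held the fewest reads of day 7, 141823. Without the third day 7 library 249 miRNAs differed as deposited and 264 rescaled.

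Whether a change was particular to B8 was tested against the same interval in D3, whose day 7 group has 2 samples, with each line rescaled by its own factors. The D3 libraries held 56377 to 129486 reads on day 0 but 1008438 and 1060306 on day 7. D3 values near 0 on day 0 therefore rest on few reads. The change differed between the lines for 189 of 521 miRNAs (36.3%), 124 (23.8%) higher in D3 and 65 (12.5%) lower. On the deposited scale 387 differed, 374 higher in D3, and 8 miRNAs were past the threshold in opposite directions on the 2 scales. miR-182-5p was among them, with a difference of −1.42 rescaled (limma adjusted p = 8.27e-05) and 0.97 as deposited (0.0247). The miR-10a-5p change was 6.72 in B8 and 11.0 in D3 (rescaled log2, difference 4.33 ± 0.32 SE, limma adjusted p = 1.13e-08), and the miR-181a-5p change 4.82 and 8.35. For miR-92b-3p the difference was −0.37 ± 0.41 SE (limma adjusted p = 0.518). let-7i-5p and miR-143-3p fell in B8 by 0.73 and 2.08, whereas their D3 changes were 4.41 and 2.52.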

How the data were processed

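Small RNA was sequenced, and the deposited table holds a signal per mature miRNA and library. Its column headers name cutadapt and length, and its title names TMM. How the library factors were set is not given in the sources used here. The submitters' processing notes name CASAVA, FastQC, Bowtie, Partek and mm10, without versions or roles. Values were whole reads divided by 1 factor per library, within 0.01 reads for values up to 1000 reads. Intervals of read numbers cover counting error only.

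The members and lists were chosen with earlier results of these data known. A miRNA was kept when its mean reached 5 per 1000000 of signal. limma 3.58.1 (R 4.3.3) was fitted to log2(value + 0.48) over 14 libraries in 5 groups, which share 1 estimate of the spread (9 residual degrees of freedom), with Benjamini-Hochberg adjustment over the 521 miRNAs and a threshold of 0.05. Rescaled values used median ratios over 369 miRNAs in B8 and 352 in D3. Arm ratios and summed seeds were fitted in the same way. edgeR 4.0.16 and DESeq2 1.42.0 on recovered reads, pseudocounts, filters, scalings and left-out libraries were alternatives. No replicate pair agreed within sampling noise.

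Named miRNAs were the largest changes each way with days not overlapping, the most abundant of each day, up to 3 per list by level, and the leading arms, seeds and line differences. Others were chosen after their values were seen. Figures used matplotlib 3.10.9 (Python 3.11.15).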

Additional observations from a re-analysis of the deposited data

Results flagged for a closer look

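The change from day 0 to day 7 differed between the lines D3 and B8 for the 6 miRNAs named here, the 3 with the smallest adjusted p in each direction, by limma on rescaled log2 values with 2 day 7 samples in D3. let-7i-5p changed by −0.73 in B8 and 4.41 in D3, a difference of 5.14 (limma adjusted p = 6.09e-10). miR-143-3p changed by −2.08 and 2.52, a difference of 4.60 (limma adjusted p = 6.09e-10). miR-214-3p changed by 2.55 and 8.59, a difference of 6.04 (limma adjusted p = 1.03e-09), and was at 0 in D3 on day 0, so its D3 change depends on the pseudocount. In the other direction, 3 miRNAs of the Sfmbt2 cluster were lower in D3. miR-467c-5p changed by 0.06 in B8 and −4.03 in D3, a difference of −4.09 (limma adjusted p = 1.04e-09). For miR-669a-5p the difference was −3.65 (limma adjusted p = 6.58e-09) and for miR-669l-5p −3.72 (limma adjusted p = 3.2e-08). As deposited, these 3 differences were −1.74, −1.28 and −1.37.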

How the results depend on the processing

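Within B8, no named miRNA, arm ratio or seed recomputed under the alternatives reversed the direction of a call, but calls were lost and gained. Of the recomputed single results, line differences included, 196 lost a call, 70 gained one and 5007 stayed on the same side of the threshold. Totals and list counts were compared by size only, and 176 recomputed list counts moved by more than a set tolerance while 1560 did not. The balance of the totals did change, from 114 higher and 146 lower as deposited to 161 and 108 with totals equal outside the miR-10 pair. Between the lines, 8 differences lower in D3 after rescaling were higher in D3 as deposited, past the threshold both ways: miR-182-5p (−1.42 and 0.97), miR-183-5p (−0.82 and 1.56), miR-672-5p, miR-34a-5p, miR-295-3p, miR-429-3p, miR-7a-5p and miR-375-3p. The count of arm shifts, 18, was 31 with a pseudocount of 10 per 1000000 and 8 with the 6 B8 libraries alone, and 8 to 20 without 1 library. The 189 line differences became 387 on the deposited scale (374 higher in D3) and 177 to 214 without 1 library. The miRNA counts ranged from 236 to 261 as deposited and from 244 to 272 rescaled without 1 library, the seed counts from 175 to 184 and from 181 to 191, and the miR-10 difference in share from 41.62 to 44.15 percentage points. edgeR called 251 miRNAs with the deposited factors and 248 with TMM, and DESeq2 called 205. Deviations from the day mean correlated between same-numbered libraries by 0.0357 to 0.0583 as deposited and by 0.0378 to 0.0609 rescaled. For 2 of the 3 numbers the best match, rescaled, was the library of the same number. With 3 libraries per day, these values do not show whether the numbers pair the samples. With the replicate block 264 miRNAs differed as deposited and 283 rescaled, 20 arm ratios, 200 seeds on either scale and 207 line differences. Depth limits the low miRNAs, since 93 of 521 lay below 3 reads on both days.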

Other observations

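Several abundant miRNAs outside the lists, chosen after their values were seen, also changed. miR-210-3p, a miRNA known to be induced by low oxygen, stood at 69.0, 63.2 and 71.7 on day 0 and at 404, 443 and 563 on day 7, a 6.91-fold rise (limma adjusted p = 6.33e-10). miR-328-3p rose 13.2-fold, from 28.9, 22.2 and 20.7 to 338, 170 and 442. miR-351-5p, of the X-linked cluster that holds miR-322, rose 9.66-fold, from 50.6, 44.5 and 35.4 to 495, 267 and 499.5. miR-744-5p rose 3.34-fold and miR-320-3p 2.73-fold. miR-31-5p fell 6.01-fold, from 253, 266 and 237 to 35.3, 42.5 and 48.0. miR-672-5p fell 2.07-fold. miR-3099-3p, in an intron of the imprinted gene Usp29, was at 0 in all day 0 libraries and at 39.2, 24.1 and 34.3 on day 7, at least 16.2-fold higher when each day 0 library is set to 3 reads.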
